A study of Mus musculus with 8 samples.

Results

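The genes described here are 10 mouse genes of glucose use that respond to low oxygen: the glucose transporter gene Slc2a1, the enzyme genes Hk2, Aldoa, Tpi1, Gapdh, Pgk1, Pgam1, Eno1 and Ldha, and the pyruvate dehydrogenase kinase gene Pdk1. They are 10 of the 22558 genes of the deposited FPKM table (fragments per kilobase of transcript, scaled to the mapped fragments of the library, so a level per length), and all 10 were found in it by symbol. The list was chosen by the day 4 FPKM of Pgk1 and Gapdh, which was lower in induced cells, and filled with other genes of the pathway. The day 4 contrast between the arms is therefore given as a description throughout, and the tests in the text rest on days 2 and 6. The members were also chosen with earlier results of these data known, so days 2 and 6 may not be independent of the choice. Fits that add day 4, and so hold values that chose the list, are given among the alternatives only. Pluripotent mouse embryonic stem cells of the lines R1 and R1/E, kept on feeder cells before differentiation, were grown as embryoid bodies, floating aggregates in which the germ layers begin to form. The control arm (labelled control) was compared with an arm in which doxycycline induced overexpression of Oct6, the POU factor of epiblast and early nervous system that Pou3f1 encodes. RNA was sequenced on days 2, 4 and 6, with 1 library per arm and day, 6 RNA-seq libraries in all, and a list of Oct6 binding sites came from 1 ChIP library of day 4 cells that overexpressed Oct6. The titles name doxycycline for the induced libraries only, and the labels do not say whether both arms are of the same line, so what doxycycline or the line does cannot be told apart from what Oct6 does. The growth protocol describes serum-free neural differentiation, while the RNA-seq titles carry the unexplained prefix fbs.

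Glycolysis splits glucose into pyruvate in the cytosol, and lactate dehydrogenase turns pyruvate into lactate when it is not burnt in mitochondria. When oxygen is low, the transcription factor HIF, a dimer of Hif1a or Epas1 with Arnt, is stabilised and raises transcription of the glucose transporter, of most glycolytic enzymes and of Pdk1, whose product closes the entry of pyruvate into the citric acid cycle. Pluripotent cells of the epiblast are known for strong glycolysis, and the transcription factor Myc drives many of the same enzyme genes. Gapdh and Pgk1 are also widely used as reference genes, on the assumption that their levels stay constant.

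HIF binds DNA at the core letters ACGTG or GCGTG, and these letters were looked for on both strands in the 250 bases before each start site that RefSeq annotates on the build GRCm38.p6. Of the 10 genes, 9 had at least 1 such core in a window, and Tpi1 had none. Such cores are common: 61.7% of the 9499 expressed genes with a matched symbol had one, and 38.6% of all 32851 windows. The ACGTG form was found at 6 of the 10 genes (Pgk1, Ldha, Aldoa, Pgam1, Hk2 and Slc2a1), against 25.15% of expressed genes and 16.6% of all windows. The letters CACGTG, an E-box that holds ACGTG on both strands and to which Myc binds, were in a window of Ldha alone among the 10, against 10.1% of expressed genes and 6.02% of all windows. No window of the 10 held the octamer ATGCAAAT, the letters POU factors bind, which 1.61% of expressed genes and 1.60% of all windows had. A match describes letters and is no proof of binding. The windows below are those of Pgk1, Ldha, Slc2a1, Pdk1 and Tpi1, each read 5′ to 3′ towards the start site, with the cores in capitals.
Pgk1 (chrX:106186850-106187099, plus strand): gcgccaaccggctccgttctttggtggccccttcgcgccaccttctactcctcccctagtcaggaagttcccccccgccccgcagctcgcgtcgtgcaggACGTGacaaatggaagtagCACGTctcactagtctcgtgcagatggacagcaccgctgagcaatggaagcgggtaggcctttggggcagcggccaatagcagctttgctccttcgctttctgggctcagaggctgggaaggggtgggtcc
Ldha (chr7:46845554-46845803, plus strand): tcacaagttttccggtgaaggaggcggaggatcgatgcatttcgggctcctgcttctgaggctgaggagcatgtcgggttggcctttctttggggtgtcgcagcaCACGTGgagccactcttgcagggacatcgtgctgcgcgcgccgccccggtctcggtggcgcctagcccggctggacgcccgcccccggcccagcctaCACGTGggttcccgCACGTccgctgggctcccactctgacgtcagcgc
Slc2a1 (chr4:119108495-119108744, plus strand): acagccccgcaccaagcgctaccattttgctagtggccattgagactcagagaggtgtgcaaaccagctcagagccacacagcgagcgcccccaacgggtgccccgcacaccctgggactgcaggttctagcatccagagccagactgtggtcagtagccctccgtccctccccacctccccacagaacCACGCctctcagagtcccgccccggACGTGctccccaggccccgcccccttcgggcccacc
Pdk1 (chr2:71872974-71873223, plus strand): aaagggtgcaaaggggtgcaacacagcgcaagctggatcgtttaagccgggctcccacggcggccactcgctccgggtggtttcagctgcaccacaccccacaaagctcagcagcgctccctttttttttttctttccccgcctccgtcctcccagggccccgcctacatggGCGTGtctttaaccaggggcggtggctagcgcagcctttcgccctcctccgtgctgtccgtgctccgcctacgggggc
Tpi1 (chr6:124814159-124814408, minus strand): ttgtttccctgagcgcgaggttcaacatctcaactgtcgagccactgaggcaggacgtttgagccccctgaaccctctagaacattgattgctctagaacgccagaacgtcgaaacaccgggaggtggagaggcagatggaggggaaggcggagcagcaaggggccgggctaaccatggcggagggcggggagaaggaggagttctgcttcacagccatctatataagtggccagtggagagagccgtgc
In these windows Ldha had cores at 3 places, Pgk1 and Slc2a1 at 2 each and Pdk1 at 1. Ldha and Pdk1 each have another annotated start, whose window is not printed. That of Ldha held 1 core, of the form GCGTG, and that of Pdk1 held none.

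Induced cells held more Pou3f1 on all 3 days, by 2.26 to 4.33 on the scale of log2(FPKM + 1), on which all differences below are given as induced minus control. Relative depth, read from the steps of weakly expressed genes with control day 2 set to 1, ran from 0.689 (induced day 6) to 1.49 (control day 4). The summed FPKM of 8 pluripotency markers was 3991, 1764 and 429 in control and 1798, 2381 and 874 in induced libraries on days 2, 4 and 6, with a median difference of -1.02, 0.56 and 0.60. At day 2, where all 10 genes were lower, 5 of these 8 markers were at least 2-fold lower in the induced library. Sums over 8 neural markers were 18.0 to 28.8 in control and 65.4 to 102 in induced libraries. In the 8 visceral endoderm markers they were 174 to 468 and 269 to 390, most of it Apoe. Without Apoe, left out after its values were seen, they were 36.9, 130.4 and 176 in control and 6.69, 7.17 and 13.8 in induced libraries, and 7 of the 8 genes were at least 2-fold lower in the induced library both at day 4 and at day 6. The day 6 sums of cardiac and blood markers were 1717 (control) and 164 (induced). They were at most 15.5 in the other libraries, and included the globins Hba-x and Hbb-y listed at 0 at day 4. Fibroblast markers, which feeder cells would also carry, summed to 11.9, 10.5 and 118 in control and 97.5, 43.2 and 43.1 in induced libraries on days 2, 4 and 6. The induced sum was thus the higher at days 2 and 4 and the lower at day 6. The part of such shifts in cell make-up in the values below was not tested.

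Slc2a1, on chromosome 4 (118781316 to 118809935, plus strand, mm9, as are the other gene positions given here), encodes the glucose transporter GLUT1, through which glucose enters most embryonic cells. Its FPKM was 177, 387 and 569.5 in control cells on days 2, 4 and 6, and 98.7, 122 and 241 in induced cells. Every induced value lay below the control value of its day, and the levels of both arms were highest on day 6. The differences were -0.83 at day 2, -1.66 at day 4 and -1.23 at day 6, so that induced cells held 0.559, 0.316 and 0.424 of the control FPKM. Slc2a1 was the member with the largest difference on each of the 3 days (after quantile normalisation Hk2 was ahead of it at day 2, with -0.74 against -0.73), and the one member at least 2-fold lower at day 6. In bulk RNA, fewer cells that express a gene and less RNA of it per cell cannot be told apart, which holds for every value here.

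Hk2, on chromosome 6 (82675019 to 82724448, minus strand), encodes hexokinase 2, which phosphorylates the glucose that has entered. It was the least abundant of the 10 genes, with 35.4, 28.7 and 22.0 FPKM in control and 21.0, 14.5 and 17.7 in induced cells. The control value was the higher on each day, by -0.73, -0.94 and -0.30 when given as induced minus control. Aldoa, the aldolase that splits the sugar into 3-carbon units (chromosome 7, 133938748 to 133944265, minus strand), had 745, 1036 and 631 FPKM in control and 476, 461 and 468 in induced cells. The induced libraries stayed within a narrow range over the 3 days while control cells peaked at day 4, and the differences were -0.65, -1.17 and -0.43. Tpi1, the triose phosphate isomerase that interconverts those units (chromosome 6, 124760604 to 124764314, minus strand), had 282, 528 and 418 FPKM against 227, 339.7 and 337 in induced cells. Its differences were -0.31, -0.64 and -0.31, the one at day 2 being the smallest of the 10.

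Gapdh, which oxidises glyceraldehyde 3-phosphate (chromosome 6, 125111871 to 125116485, minus strand), had 406, 427 and 295 FPKM in control and 306, 301 and 242 in induced cells. It chose the list through its day 4 value, and its differences were -0.41, -0.50 and -0.28. Pgk1, the other gene behind the choice, makes the first ATP of the pathway (chromosome X, 103382439 to 103399038, plus strand). Its FPKM was 597, 1443 and 890.0 in control and 449, 697 and 656 in induced cells, with differences of -0.41, -1.05 and -0.44. At days 2 and 6, outside the day 4 contrast that chose them, both genes were again lower in the induced library. Induced cells held 0.754 and 0.821 of the control FPKM for Gapdh and 0.751 and 0.737 for Pgk1. Pgam1, the phosphoglycerate mutase of the next step (chromosome 19, 41986361 to 41993154, plus strand), had 593, 524 and 486 FPKM against 385, 295 and 317. Its differences of -0.62, -0.83 and -0.62 changed little from day to day. Eno1, the enolase (chromosome 4, 149610830 to 149622988, plus strand), had 200.4, 252 and 128 FPKM against 132, 144 and 108, and its difference of -0.24 at day 6 was less than that of -0.60 at day 2.

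Ldha encodes the lactate dehydrogenase chain that favours lactate (chromosome 7, 54096845 to 54110997, plus strand). It was the most abundant member in all 6 libraries, with 1006, 2167 and 1333 FPKM in control and 667, 983 and 873 in induced cells. At control day 4 it ranked 13 among all genes of the table, and at induced day 4 it ranked 81. The differences were -0.59, -1.14 and -0.61. Pdk1 stood apart from the other 9 genes. Its product phosphorylates and so inhibits pyruvate dehydrogenase (chromosome 2, 71711281 to 71741915, plus strand). Control cells held 72.2, 62.2 and 27.4 FPKM and induced cells 46.9, 64.1 and 33.0. Its difference was -0.61 at day 2, like that of the enzyme genes, and then 0.04 and 0.26, the day 4 value becoming -0.07 with median ratio scaling of the libraries.

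**Figure D1:**
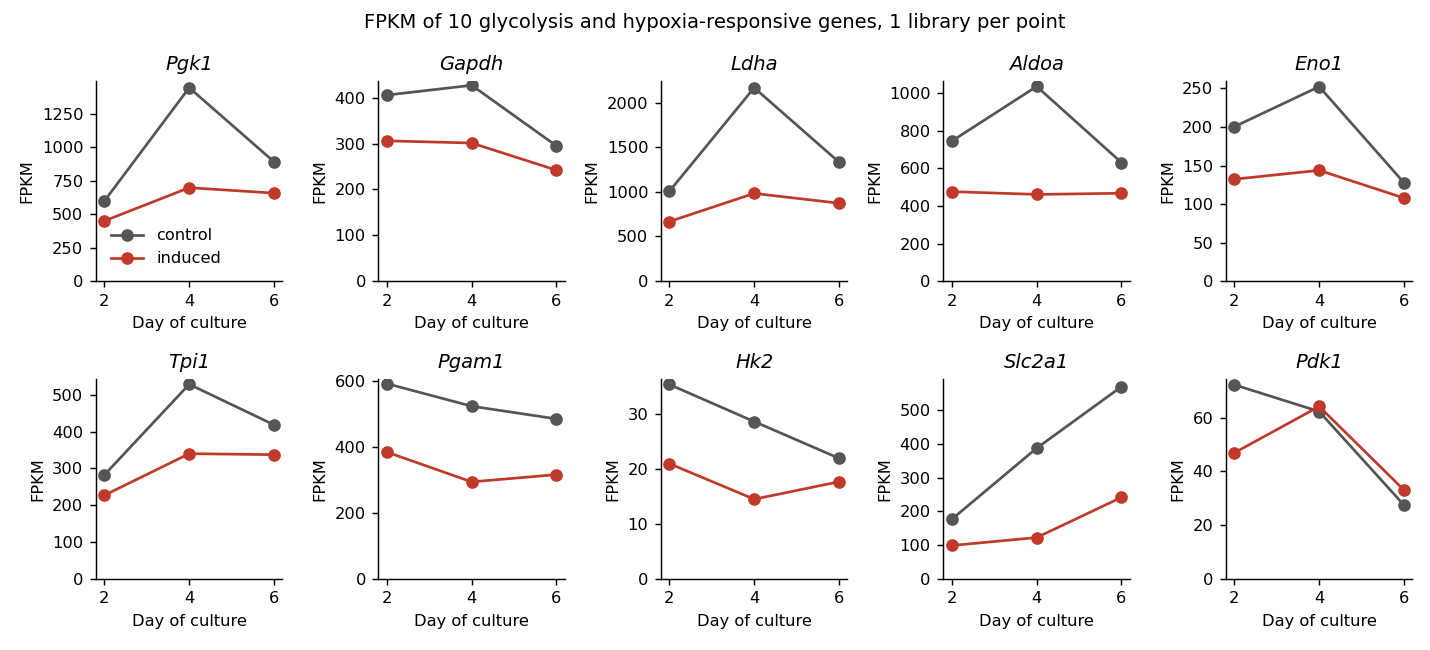
FPKM (linear axis from 0) of the 10 genes by day of culture in control (grey) and induced (red) cells, 1 library per point with no replicate. The red points lie below the grey ones in every panel and day except for Pdk1 at days 4 and 6, where they read 64.1 against 62.2 and 33.0 against 27.4.

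At day 2 all 10 genes were lower in the induced library, where 36.2% of the 12586 genes that reached 1 FPKM in one arm or the other were lower. The median difference over the 10 was -0.60, beside 0.16 over all expressed genes and -0.09 over the 693 genes whose mean FPKM was at least 100, of which 64.2% were lower. At a fold of at least 1.5, 7 of the 10 were lower at day 2, with a background of 6.05%, and at 2-fold none was, with a background of 1.83%. After quantile normalisation 4 passed 1.5-fold at day 2 (Ldha, Hk2, Slc2a1 and Pdk1), with a background of 11.5%. At day 6, 9 of the 10 were lower (background 40.7%, and 46.5% of the abundant genes), 3 by at least 1.5-fold (Ldha, Pgam1 and Slc2a1; background 4.97%) and 1 by at least 2-fold (background 2.10%), and the median was -0.37 beside 0.06 over all expressed genes. Those 3 genes were 1.5-fold lower at day 2 as well, where 0.549% of all expressed genes passed on both days, and 9 of 10 members were lower by any amount on both, against 18.3%. After quantile normalisation Pgam1 no longer passed 1.5-fold on either day, which left Ldha and Slc2a1. At day 4, whose contrast chose the list, 9 of the 10 were lower (38.2% of genes), 8 by at least 1.5-fold (5.69%) and 4 by at least 2-fold (2.11%), with a median of -0.88. None of the 10 was 1.5-fold higher on any day (backgrounds of 22.9%, 14.0% and 7.78%) or 2-fold higher (9.72%, 6.09% and 3.37%). The background leaned to higher values at day 2, with 1223 genes 2-fold higher and 230 lower. That split became 1020 and 335 with median ratio scaling and 693 and 464 after quantile normalisation. The median of all expressed genes was then 0.04 with scaling and -0.05 after quantile normalisation, and all 10 genes were lower at day 2 under both. The members' sum was 0.915%, 1.43% and 1.06% of all FPKM in control and 0.633%, 0.700% and 0.718% in induced libraries.

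**Figure D2:**
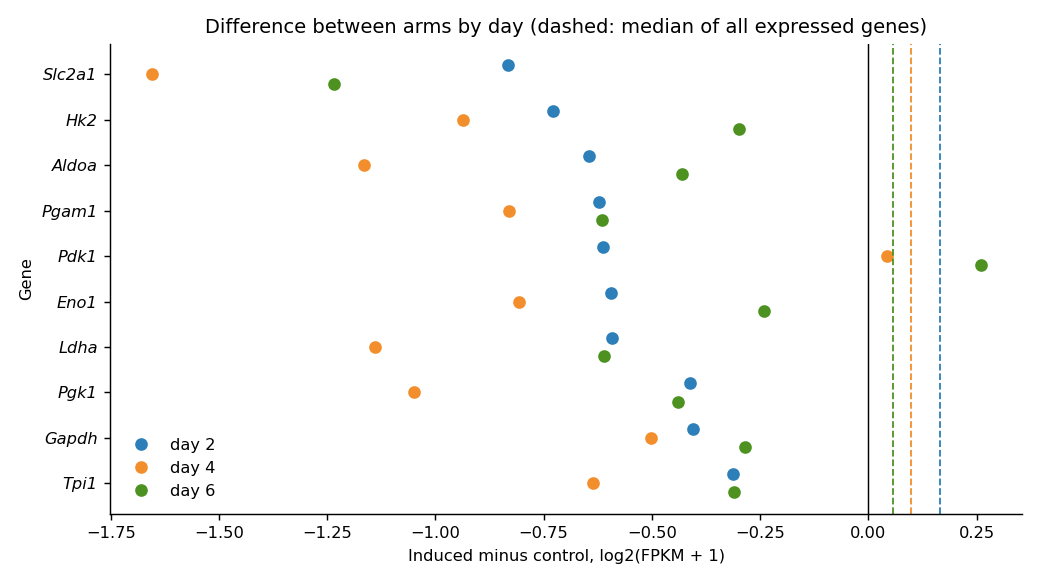
Induced minus control difference of log2(FPKM + 1) for each gene at day 2 (blue), day 4 (orange) and day 6 (green), with dashed lines at the median of all expressed genes (0.16, 0.10 and 0.06). Slc2a1 lies farthest left on each day (not at day 2 after quantile normalisation, where Hk2 does), and Pdk1 is the gene with points right of 0.

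The difference between arms over days 2 and 6 was tested with limma across 13661 expressed genes, with day as a block and 1 residual degree of freedom. No gene passed at an adjusted p of 0.05 in either direction (background 0.00%). The adjusted p from limma was 0.583 for Slc2a1, whose estimate was -1.03 ± 0.16 (SE, 4 libraries), and 0.598 to 0.810 for the other 9. Unadjusted p-values below 0.05 with a lower level in induced cells were reached by 8 of the 10 genes, all but Tpi1 and Pdk1, where 229 of all 13661 genes (1.68%) had one and 837 (6.13%) had one in the other direction. The members' count was 3 without a trend in the variance (178 of 13661 genes) and 4 without the filter on low values (252 of 19468). It was 6 with a pseudocount of 0.1 (232 of 13661) and 9 with median ratio scaling (366 of 13661). After quantile normalisation it was 8 (464 of 13661), and with an FPKM of 10 or more also 8 (209 of 7968). Estimates ran from -0.31 ± 0.12 for Tpi1 to -0.62 ± 0.12 for Pgam1 among the enzyme genes, and the estimate for Pdk1 was -0.18 ± 0.25. The test draws on the spread of the difference between the 2 days, not between repeated cultures. With 1 residual degree of freedom, limma also pulls that spread towards a trend fitted over all genes (prior of 3.38 degrees of freedom). The SE and p-values are thus not those of 1 gene's own spread.

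Over culture time the 10 genes took different courses. Between control days 2 and 4, Pgk1, Ldha and Slc2a1 were at least 2-fold higher, by 1.27, 1.11 and 1.13 (9.63% of genes were), and Tpi1 differed by 0.90, while Gapdh differed by 0.07 and Hk2 by -0.30. No member was 2-fold lower over that step (background 4.65%). In induced cells no member was 2-fold higher or lower from day 2 to day 4 (2.73% and 2.36% of genes were), and the same 4 genes differed by 0.63, 0.56, 0.31 and 0.58. From day 4 to day 6, Pdk1 was the one member 2-fold lower in control cells, by -1.15 (2.97%), none was 2-fold higher (6.15%), and in induced cells none passed either way (2.98% and 2.10%), with Slc2a1 at 0.98 and Pdk1 at -0.94. The control day 4 library belongs to the contrast that chose the list, and it was also the deepest. Over both arms limma estimated a rise of 1.48 ± 0.16 from day 2 to day 6 for Slc2a1, with an adjusted p of 0.0497. These libraries lie outside the day 4 contrast, and Slc2a1 was higher in both arms. It was one of 90 genes that passed as higher (0.659%), and 34 passed as lower (0.249%), none of them among the 10. That call was lost with a pseudocount of 0.1, without the filter on low values and without a trend in the variance. Tpi1 and Pgk1 had estimates of 0.57 ± 0.12 and 0.56 ± 0.13 with adjusted p-values of 0.0845 and 0.0870, and Pdk1 one of -0.93 ± 0.25 with 0.110 in limma. At an unadjusted p below 0.05 in limma, 4 of the 10 were higher (Slc2a1, Tpi1, Pgk1 and Ldha, background 19.3%) and 3 lower (Pdk1, Eno1 and Gapdh, background 10.2%). These counts became 3 and 1 without the trend (2602 and 1252 of all 13661 genes) and 3 and 2 without the filter (2550 and 1755 of 19468). With median ratio scaling they were 2 and 4 (2082 and 1871 of 13661). After quantile normalisation they were 4 and 5 (2037 and 2129 of 13661). Within each arm Slc2a1 was the one member 2-fold higher at day 6 than at day 2, by 1.68 in control (17.2%) and 1.28 in induced cells (7.22%). Pdk1 was the member farthest below its day 2 level in both arms, with -1.36 in control (6.73% of genes were 2-fold lower) and -0.49 in induced cells (5.35%).

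Several members have a sister gene for the same reaction, and the share of the family's FPKM that each took is a ratio within a library, which scaling of libraries leaves as it is. Ldha held 88.7%, 90.5% and 94.8% of Ldha plus Ldhb in control cells on days 2, 4 and 6, and 84.8%, 79.0% and 83.9% in induced cells. Ldhb, the chain that favours the reverse reaction, had 128, 227 and 72.9 FPKM in control and 119.8, 261 and 167 in induced cells, a difference of 1.19 at day 6. Hk2 held 86.5%, 80.7% and 74.1% of Hk1 plus Hk2 in control and 72.2%, 68.5% and 71.0% in induced cells. Slc2a1 held 60.7%, 45.9% and 53.1% of its sum with Slc2a3, the high-affinity transporter GLUT3, in control and 42.5%, 38.1% and 42.5% in induced cells. For these 3 genes the induced share was the lower on every day. The shares of Aldoa with Aldoc (97.6% to 99.2%) and of Eno1 with Eno2 (93.3% to 99.3%) were high throughout. The sum for Eno1 left out Eno3, which lay above Eno2 in each library, so it is not the share of all enolase genes. Eno3 had 7.09, 15.7 and 40.4 FPKM in control and 7.40, 14.4 and 29.0 in induced cells. Pdk1 held 76.7%, 68.5% and 49.9% of the 4 kinase genes Pdk1 to Pdk4 in control and 64.3%, 70.9% and 54.0% in induced cells, with the order of the arms reversed after day 2.

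**Figure D3:**
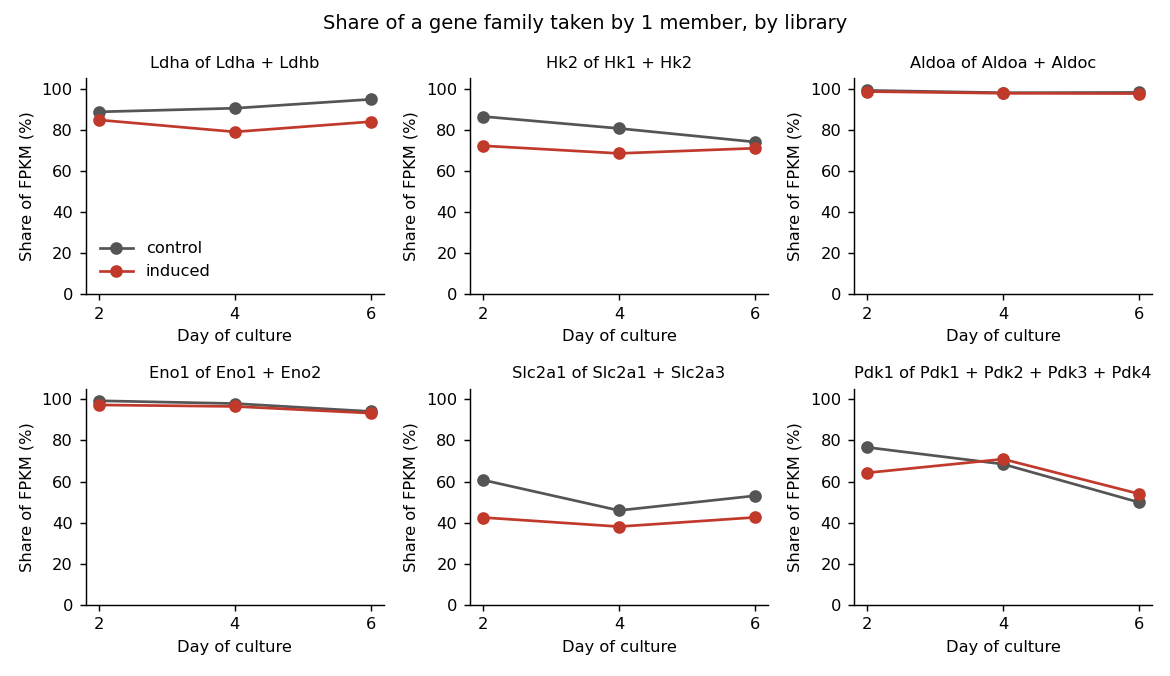
Share of a gene family's summed FPKM (percent, axis from 0) taken by 1 member, by day, in control (grey) and induced (red) libraries, 1 library per point. The sums hold the genes named above each panel, and that of Eno1 leaves out Eno3. For Ldha the arms lie farther apart at days 4 and 6 than at day 2 (90.5% against 79.0% and 94.8% against 83.9%), and for Hk2 and Slc2a1 they lie farthest apart at day 2 (86.5% against 72.2% and 60.7% against 42.5%).

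Other genes of the pathway were taken from lists of its enzymes, transporters and regulators. Of the other glycolytic enzymes, 13 of 19 reached an FPKM of 1, many of them minor isozymes, and their medians were 0.05, -0.16 and -0.04. Pfkl and Pkm2 were lower in the induced library on all 3 days. Pfkl, the liver-type phosphofructokinase of the committed step, had 98.5, 156 and 111 FPKM in control and 61.7, 64.9 and 67.3 in induced cells, and Pkm2 (now Pkm), the pyruvate kinase of the last step, had 1916, 2073 and 1418 against 1305, 1456 and 1139. Their differences were -0.67, -1.25 and -0.71, and -0.55, -0.51 and -0.32. Pfkp, another phosphofructokinase, differed by -0.92, -0.62 and 0.16. Of 7 expressed glucose and lactate transporters, Slc16a3, the lactate exporter MCT4, was lower on each day, with 77.3, 123 and 86.5 FPKM in control and 33.3, 39.2 and 45.1 in induced cells. Slc2a3 had 114, 456 and 504 against 134, 199 and 326, with a difference of 0.22 at day 2 and -0.63 at day 6. Slc16a1, the transporter MCT1, differed by -0.30, -1.26 and -0.16, and Bsg, the chaperone of both lactate transporters, by 0.40, -0.16 and -0.26.

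Some genes for the entry of pyruvate into mitochondria were higher in induced cells on all 3 days. The list of 16 flux regulators and pyruvate entry genes had medians of 0.24, 0.26 and 0.29, with 5, 6 and 2 of the 16 lower (31.25%, 37.5% and 12.5%, beside 36.2%, 38.2% and 40.7% of all genes). In limma over days 2 and 6, 2 of the 16 had an estimate below 0, 6 with median ratio scaling and 8 after quantile normalisation, so that the list's lean depends on the scaling. Pdha1, the catalytic subunit of pyruvate dehydrogenase, was picked after its values were seen and had 80.3, 101 and 69.8 FPKM in control and 119, 141 and 107 in induced cells. Pdp1, the phosphatase that removes the phosphates Pdk1 adds, had 3.08, 3.70 and 4.11 against 6.02, 12.2 and 7.87. Both were higher in the induced library on all 3 days. Other genes of the pyruvate dehydrogenase complex were mixed or near 0. Pdhb differed by -0.10, 0.37 and 0.21 and Dlat by -0.04, -0.25 and 0.06. Dld differed by 0.26, -0.02 and 0.11 and Pdhx by 0.05, 0.22 and 0.09. Pfkfb3, a flux regulator of the same list, was lower on each day, with -0.21, -1.07 and -0.75. Brp44l and Brp44, now Mpc1 and Mpc2, form the mitochondrial pyruvate carrier. Brp44l had 15.1, 9.46 and 7.26 FPKM against 16.1, 20.7 and 15.9, and Brp44 had 9.71, 12.6 and 17.2 against 17.2, 24.5 and 22.8. Pfkfb2, a bifunctional regulator of phosphofructokinase, differed by 0.80, 0.29 and 0.41. The 16 citric acid cycle genes stayed near 0, with medians of 0.03, -0.09 and 0.05 and none 1.5-fold lower on any day; Fh1, the fumarase, was the one member 1.5-fold higher, at day 2, with 0.67, and among the others named by the rule Idh3g differed by 0.22, 0.08 and 0.31, Dlst by 0.23, -0.10 and -0.10 and Sdhb by 0.13, 0.18 and 0.21. Medians of the 7 pentose phosphate genes were -0.13, -0.05 and -0.03, with Tkt, the transketolase, at -0.38, -0.70 and -0.23, Pgls at 0.46, -0.05 and -0.03, G6pdx at -0.40, -0.24 and -0.08 and Pgd at -0.02, -0.06 and -0.16. For 4 expressed genes of gluconeogenesis they were 0.13, -0.02 and 0.04, with G6pc3 at 0.69, -0.09 and 0.03 and Pck2 at 0.29, -0.47 and 0.06. None of these lists had a gene past an adjusted p of 0.05 between arms in limma.

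**Figure D4:**
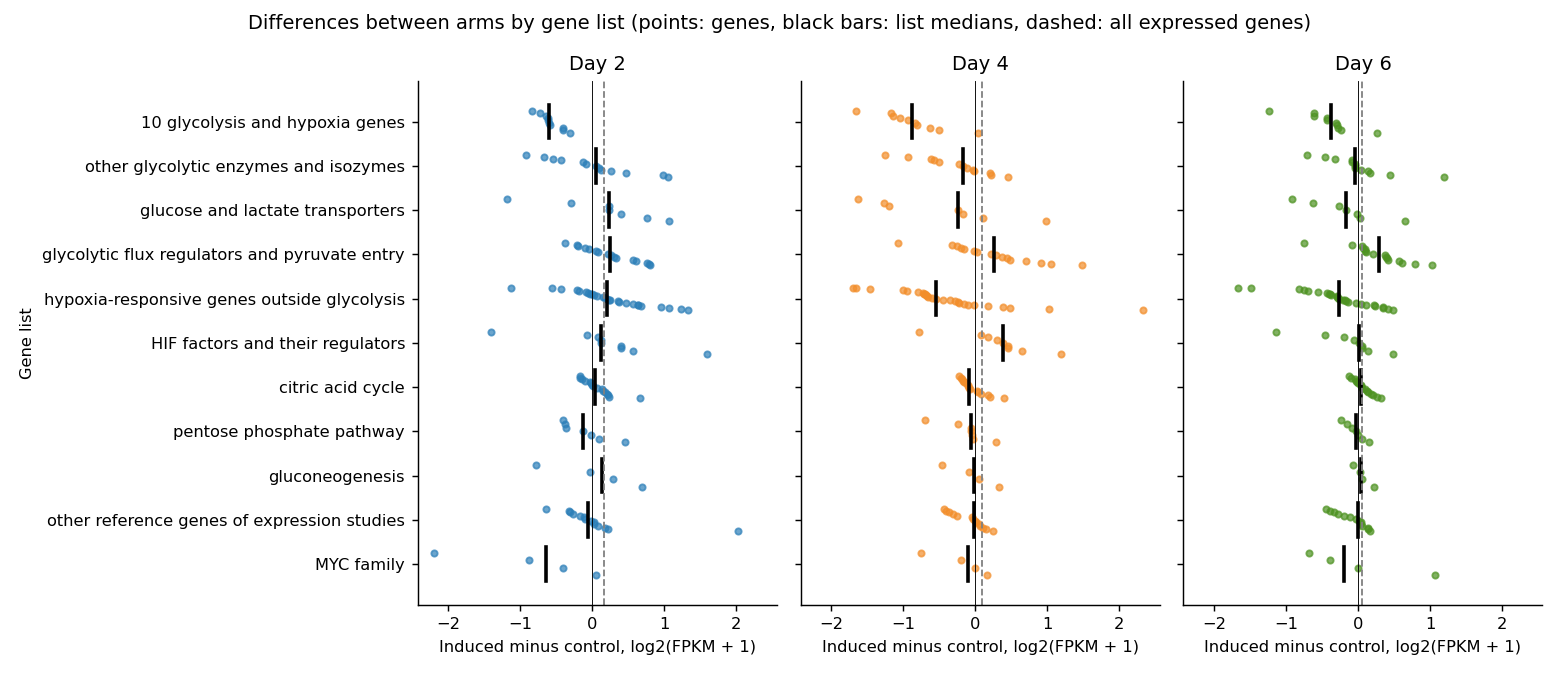
Induced minus control difference of log2(FPKM + 1) for the expressed genes of each list on days 2, 4 and 6 (points), with list medians (black bars) and the median of all expressed genes (dashed). The 10 glycolysis and hypoxia genes have medians of -0.60, -0.88 and -0.37, the 27 expressed hypoxia-responsive genes outside glycolysis 0.21, -0.55 and -0.26.

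Hypoxia-responsive genes outside glycolysis were lower in induced cells at day 2 about as often as genes in general. Among those that reached 1 FPKM on the day, 9 of 25 were lower at day 2 (background 36.2%), 22 of 27 at day 4 (38.2%) and 19 of 26 at day 6 (40.7%). Vegfa, the angiogenic growth factor, had 2.58, 13.5 and 41.6 FPKM in control and 8.03, 8.19 and 31.95 in induced cells, so the induced library was higher at day 2 and lower at days 4 and 6. Ankrd37, an ankyrin repeat protein, was higher by 1.24, 1.02 and 0.23, and Loxl2, a lysyl oxidase of collagen, was lower by -0.44, -1.66 and -1.49. Egln3, an oxygen-sensing prolyl hydroxylase, differed by -1.14, -0.95 and 0.22, and its relative Egln1 by 0.56, -0.72 and -0.18. Of the HIF subunits, Hif1a had 45.3, 37.1 and 57.9 FPKM in control and 49.5, 51.2 and 55.5 in induced cells, and Arnt differed by -0.07, 0.18 and 0.14. Epas1 had 16.2, 0.979 and 8.48 against 5.46, 1.58 and 3.31, lower in induced cells at days 2 and 6. Vhl, which marks the HIF subunits for destruction, differed by 0.56, 0.65 and 0.06, Egln2, another prolyl hydroxylase, by 0.40, 0.45 and 0.05, and Cited2, a competitor of HIF for its coactivator, by 0.40, 0.08 and -0.47. HIF activity is set mainly by protein stability, which RNA does not measure. Myc was lower on each day, with 46.1, 19.2 and 16.4 FPKM in control and 24.6, 11.03 and 9.79 in induced cells. Mycn had 74.6 against 15.4 at day 2 and differed by -0.20 and -0.38 later. Mycl1 differed by 0.05, 0.17 and 1.06 and Max by -0.40, 0.00 and -0.01.

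Since Gapdh and Pgk1 serve as reference genes, 14 others of that use were set beside them. Their medians were -0.07, -0.02 and -0.01, and 1 was 1.5-fold lower on any day, Tfrc, the transferrin receptor, at day 2 with -0.64. Actb, added here as the most used of them, had 462, 455 and 459.95 FPKM against 427, 344 and 378, differences of -0.11, -0.40 and -0.28. B2m, the light chain of MHC class I, differed by 2.03 at day 2 and by 0.25 and 0.05 later, Polr2a, the large RNA polymerase II subunit, by 0.18, -0.03 and -0.39, and Gusb, beta-glucuronidase, by 0.22, -0.43 and -0.33. Gapdh and Pgk1 at -0.41 each at day 2 and -0.28 and -0.44 at day 6 lay below those medians.

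Of the 10 genes, 1 had an Oct6 peak centred within 10 kb of an annotated start, where 20.7% of 13399 expressed genes did. That was Tpi1, with a peak on chromosome 6 (124759628 to 124759760, mm9) 2.21 kb downstream of the nearest start, within the annotated gene Spsb2 that overlaps Tpi1 on the other strand. That start is of a transcript that begins inside Tpi1, and the peak lies past the end of the gene. The deposited score of this peak, 10.1, lay below the median of 11.4 over the authors' list. Within 100 kb, 5 of the 10 had a peak (Gapdh, Aldoa, Eno1, Tpi1 and Slc2a1), against 58.9% of expressed genes. The nearest peaks of Aldoa and Slc2a1 also scored 10.1, that of Gapdh 8.9 and that of Eno1 11.4. Slc2a1, the member with the largest difference, had its nearest peak 31.4 kb from the start, Ldha 407 kb and Pgk1 1115 kb away. Among the 117 other pathway, reference and regulator genes, 28 (23.9%) had a peak within 10 kb. Those included peaks 0.584 kb from the start of Pkm2, 0.022 kb from that of Pdp1, 0.119 kb from that of Brp44, 0.486 kb from that of Vegfa, 0.036 kb from that of Myc and 0.013 kb from that of Mycn, genes chosen here after their distances were seen. Of these picked genes, Pdp1 and Brp44 were higher in induced cells on all 3 days, and Pkm2, Myc and Mycn were lower. Vegfa was higher at day 2 and lower at days 4 and 6. Whether a near peak goes with a direction was not tested.

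Across the 6 libraries the log2 levels of Pgk1 and Ldha moved most alike among the 10 (Pearson r = 0.98 over 6 libraries), and those of Slc2a1 and Pdk1 were least alike (r = -0.50). All genes of a library share its depth and scaling, so these are descriptions. Of 5180 genes that reached 10 FPKM in all 6 libraries, the 5 most like Pgk1 were Hook2, 5930416I19Rik, Fem1b, Ldha and Tpi1 (r of 0.980 to 0.991). The 5 most like the mean of the 10, among 5171 others, were Klhdc3, Pfkl, Mif, Hdgf and 2810046L04Rik (r of 0.973 to 0.994). Pfkl is a glycolytic enzyme gene, and Mif, a cytokine gene of the hypoxia list, had 808, 957 and 735 FPKM in control and 545, 655 and 606 in induced cells.

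How exactly these levels were measured differs between members, because some have near-identical copies in the genome that share reads. Outside its own locus, the longest Gapdh transcript matched 122 places with at least 90% identity over at least 50% of its length, 43 of them at 95% or more. Ldha had 7 such places, Eno1 6, Aldoa 5, Pgam1 4, and Pgk1 and Tpi1 2 each, while Hk2, Slc2a1 and Pdk1 had none. The copy of Eno1 named Gm5506, 99.5% identical, has a row of its own with 211, 272 and 135 FPKM in control and 141, 151 and 111 in induced cells, close to the Eno1 values in each library. Reads of these genes may have been split between both rows. Summed, the rows differed between arms by -0.59, -0.83 and -0.26, against -0.60, -0.81 and -0.24 for Eno1 alone.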

How the data were processed

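The authors deposited 1 table of FPKM values by gene symbol for the 6 RNA-seq libraries and 1 list of Oct6 peaks with a score for each peak. The submitters' processing notes name mm9 as the build and, as tools, HOMER, Cuffdiff, Cufflinks 1.3.0 and TopHat 1.4.1. Filters, the treatment of reads with several matches, strand and the meaning of the score are not given in the sources used here. Values of genes with copies or overlapping partners are therefore uncertain. Values were taken as log2(FPKM + 1), which understates folds of weakly expressed genes. The 13661 genes that reached 1 FPKM in any library entered a limma fit (version 3.58.1, R 4.3.3, lmFit, eBayes with trend, Benjamini-Hochberg adjustment over all of them) on the 4 libraries of days 2 and 6, with day and arm as terms. The fit was tested on simulated data. Within a day no test is possible, and genes were counted past a fold among those that reached 1 FPKM in one of its libraries.

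The members and gene lists were chosen with earlier results of these data known. Beside the 10 members and the isozymes, HIF and MYC genes, the rule named up to 4 genes per list with the largest difference at day 2 or 6 and an FPKM of 10 or more in any library, and the 5 genes most like Pgk1 or the members' mean by Pearson correlation. Genes were placed with the GENCODE annotation of NCBIM37, the assembly of mm9; 98.1% of expressed symbols had a start there, and 14 of 7979 peaks lay on contigs outside it. Start sites were those of any annotated transcript. Copies were found with minimap2 2.31 (preset asm20). Promoter windows came from RefSeq on GRCm38.p6 and were kept apart from mm9 positions. Relative depth is the most frequent ratio between libraries among genes below 0.3 FPKM; fragment totals are not given in the sources used here. Python 3.11.15, numpy 2.4.6, pandas 2.3.3 and matplotlib 3.10.9 were used.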

Additional observations from a re-analysis of the deposited data

Results flagged for a closer look

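Differences between arms of opposite sign on different days were seen for Pdk1 among the 10 genes and, by at least 0.5 each way, for Vegfa and Egln1 among the other genes named. For Pdk1 the induced minus control difference was -0.61 at day 2 and 0.26 at day 6. For Vegfa it was 1.34 at day 2 and -0.66 at day 4, and for Egln1 it was 0.56 and -0.72 on the same days. With 1 library per arm and day the change between days was not tested.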

How the results depend on the processing

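The members' median difference moved to -0.77 at day 2 and -0.99 at day 4 with median ratio scaling of the libraries, and to -0.44 at day 2 after quantile normalisation; scaling moved the day 2 median of all expressed genes from 0.16 to 0.04 and quantile normalisation moved it to -0.05. All 10 genes were lower at day 2, and 9 at day 6, under both and with a pseudocount of 0.1. At a fold of 1.5 the members lower numbered 7, 8 and 3 on days 2, 4 and 6, against 0, 4 and 1 at 2-fold; after quantile normalisation 4, 8 and 2 passed 1.5-fold. Between arms, limma passed 0 genes higher and 0 lower, 2 higher (2610203C20Rik and A930011O12Rik) and 1 lower (Snord70) with all 3 days, and 1 lower (Snord70) with an FPKM of 10 or more, none of them a member. For day 6 against day 2 it passed 90 higher and 34 lower genes, 1 and 0 with a pseudocount of 0.1, 0 and 0 without the filter and also without the trend, 132 and 84 after median ratio scaling, 328 and 288 after quantile normalisation, 656 and 382 with an FPKM of 10 or more, and 1572 and 820 with all 6 libraries. Fits with all 3 days hold the day 4 values that chose the list. Tpi1 passed as higher with all 6 libraries, and Tpi1 and Pgk1 with an FPKM of 10 or more; Pgk1 also passed after quantile normalisation. Members with a peak numbered 5 within 100 kb (58.9% of expressed genes had one). With the 4685 peaks at or above the median score alone, they numbered 0 within 10 kb (12.5% of expressed genes). Within 100 kb of those peaks they numbered 3 (Gapdh, Eno1 and Tpi1, against 41.4%). The cause of these changes was not tested. No replicate could be left out with 1 library per arm and day.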
